A study of Eublepharis macularius with 18 samples.

Results

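Messenger RNA of 5 thin filament genes, the cardiac and skeletal alpha-actins Actc1 and Acta1, cardiac troponin T (Tnnt2), cardiac troponin I (Tnni3) and the tropomyosin Tpm1, was followed in the leopard gecko ventricle after a freezing injury. The genes were chosen by symbol, and each was 1 of the 12376 rows of the deposited expression table, so no row had to be picked among repeats. The rows carry mouse Ensembl identifiers given to assembled gecko transcripts: ENSMUSG00000068614 for Actc1, ENSMUSG00000031972 for Acta1, ENSMUSG00000026414 for Tnnt2, ENSMUSG00000035458 for Tnni3 and ENSMUSG00000032366 for Tpm1. Each symbol also matched 1 gene of the RefSeq leopard gecko annotation (MPM_Emac_v1.0).

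The study asked how the heart of Eublepharis macularius, a lizard, responds to cryoinjury, in which a metal probe chilled in liquid nitrogen is pressed on the exposed ventricle through an opened pericardium. Sequencing of poly-A RNA covered 18 animals, 3 in each of 6 groups. These were controls, sham-operated animals, and cryoinjured animals sampled 3, 14, 30 and 100 days post injury (dpi). Tissue of the injured hearts came from beside the injury, and that of control and sham hearts from a matching part of the ventricle. The labels call the treatments Control, Sham and Cryoinjured and give no strain, sex or age of the animals, no sampling time after sham surgery and no sequencing batch. Summed over the rows of the expression table, the libraries held 12646411 to 34898541 reads. The deepest was 100 dpi 3, ahead of 19825686 reads in the next. The lowest value of any member (Tpm1 in 100 dpi 1) rested on 2805 reads. Levels within a gene are the authors' normalized counts, and levels of different genes are compared as FPKM, which divides by transcript length.

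Actin monomers polymerise into the backbone of the thin filament, along which tropomyosin winds and covers the sites where myosin binds. The troponin complex sits on tropomyosin: troponin T anchors it, troponin I holds the filament off, and calcium binding to troponin C lifts that block and lets the heart contract. In mammals Actc1, Tnnt2 and Tnni3 are the main adult cardiac forms, while Acta1 is the main skeletal muscle actin and is also made in the heart. Acta1 is one of the genes that rise in the stressed ventricle of rodents.

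The 5 transcripts took 1.45% to 2.89% of the reads of a library that were counted over all rows. Per length, Actc1 had the highest median of the 5, 4885 FPKM over the 18 libraries, within a range of 1653 to 8135 FPKM. Tnnt2 followed at a median of 4146 FPKM (2969 to 5464) and Tnni3 at 3974 FPKM (2817 to 5554). The Acta1 median was 598 FPKM (243 to 960), and that of Tpm1 was 86.1 FPKM (48.1 to 217). The gap between the 2 actins depends on the lengths assigned to their rows: in normalized counts the medians were 104938 for Actc1 and 43415 for Acta1. In FPKM the ranges of Actc1, Tnnt2 and Tnni3 overlapped, whereas Acta1 lay below all 3 in every library and Tpm1 below Acta1 in every library. Beside the 5 members stood a list of 18 cardiomyocyte markers, of which 17 had a row and all 17 passed the minimum level. Their summed level was 702259 to 1117530 normalized counts in all 18 libraries. In a separate list of 12 thick filament and titin genes, Myl2 was at 0 in all 18 libraries, and Myh7b and Myl3 had no row. Of 14 skeletal muscle markers, 12 were measured and 5 of them passed the minimum level, and the sum of the 12 stayed between 305 and 1183 normalized counts.

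Control 2 stood apart from the other controls in both actins and less so in the other members. Its Actc1 level was 29.3% of the mean of the other 2 controls and its Acta1 level 34.2%, while Tnnt2 was at 77.0%, Tnni3 at 78.0% and Tpm1 at 78.6%.

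**Figure D1:**
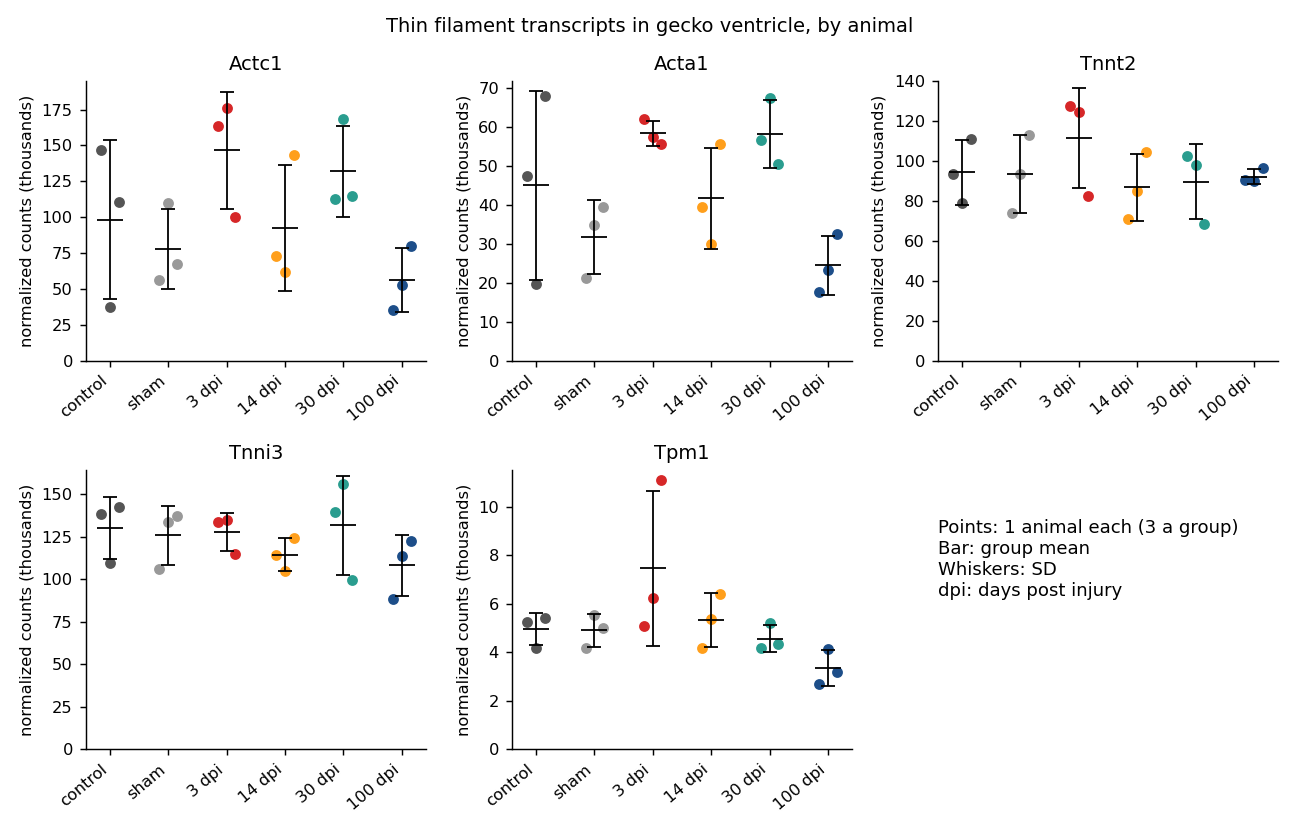
Normalized counts (linear axes from 0) of the 5 thin filament transcripts by group. Each point is 1 animal, the bar the group mean and the whiskers the SD (n = 3). Actc1, Acta1, Tnni3 and Tpm1 reach their lowest group means at 100 dpi (55960, 24458, 108146 and 3335). The troponin groups overlap throughout, and Tpm1 is highest in animal 3 at 3 dpi (11099).

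No member passed the test at any single time after injury, against control or against sham. The threshold was 0.05 for the p that limma gave after Benjamini-Hochberg adjustment across the 9887 genes tested. The 1 call among 14 comparisons was Tpm1, which was lower at 30 and 100 dpi together than at 3 and 14 dpi together. That contrast was chosen with a separation of the 30 and 100 dpi libraries in these same data already known, so its p is not that of an independent choice. Both actin transcripts had their lowest mean at 100 dpi, and so did Tnni3 and Tpm1. Among the 14 comparisons run, which do not set 100 against 3 dpi, the actins differed most between 100 and 30 dpi. The log2 difference was -1.29 for each actin there, without passing the threshold. The troponin transcripts had the smallest differences, at most 0.35 on the log2 scale in any of the 14 comparisons.

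Actc1, the major actin of heart muscle, had 146531, 37616 and 110508 normalized counts in the 3 controls, 56375, 109697 and 67187 in the shams, and 163195, 176237 and 100179 at 3 dpi. It had 72999, 61767 and 142974 at 14 dpi, 112305, 168620 and 114866 at 30 dpi, and 35400, 52804 and 79676 at 100 dpi. All 3 animals at 100 dpi lay below all 3 at 30 dpi, and also below all 3 at 3 dpi, while control 2 lay among the 100 dpi values. How many of all tested genes separate these groups was not counted, so the separation alone does not set Actc1 apart. The group means, from the highest, were 146537 ± 40673 at 3 dpi, 131930 ± 31800 at 30 dpi, 98218 ± 55488 in controls, 92580 ± 44002 at 14 dpi, 77753 ± 28187 in shams and 55960 ± 22306 at 100 dpi (SD, n = 3 each). Each step in that order was smaller than the larger SD of the 2 neighbours. The log2 difference of 100 dpi against 30 dpi was -1.29 (SE 0.46, adjusted p = 0.192, limma), with a 95% interval of -2.28 to -0.30. Against control, the Actc1 values of 100 dpi gave -0.68 (SE 0.46, adjusted p = 0.370, limma), and those of 3 dpi gave 0.75 (adjusted p = 0.452, limma). Without control 2 they were -1.26 (adjusted p = 0.0759, limma) and 0.16. Across all 6 groups the limma F test of Actc1 had an adjusted p of 0.170, beside 16.2% of tested genes called by that test.

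Acta1, the skeletal alpha-actin, had 47397, 19698 and 67941 normalized counts in controls, 21211, 34837 and 39433 in shams, and 62028, 57428 and 55672 at 3 dpi. It had 39389, 30080 and 55705 at 14 dpi, 56806, 67462 and 50413 at 30 dpi, and 17616, 23186 and 32573 at 100 dpi. The 3 dpi and 30 dpi animals all lay above all shams and all 100 dpi animals, whereas the controls spanned both levels. The share of all tested genes that separate in this way was not counted. Mean levels ordered the groups as they did for Actc1: 58376 ± 3282 at 3 dpi, 58227 ± 8613 at 30 dpi, 45012 ± 24210 in controls, 41725 ± 12971 at 14 dpi, 31827 ± 9476 in shams and 24458 ± 7559 at 100 dpi (SD, n = 3 each). No neighbours in that order differed by more than the larger of their SDs. The log2 difference of 100 dpi against 30 dpi was -1.29 (SE 0.37, 95% interval -2.07 to -0.50), with an unadjusted p of 0.00326 and an adjusted p of 0.123 (limma). DESeq2 on recovered reads called that difference at -1.25 with an adjusted p of 0.0173, and edgeR's quasi-likelihood test did not call it. The 100 dpi level of Acta1 against control was -0.75 on the log2 scale (adjusted p = 0.203, limma). Without control 2 the same difference was -1.26 (adjusted p = 0.0256, limma) and passed the threshold, so that 1 control decides this call. The limma F test over the 6 groups had an adjusted p of 0.0815 for Acta1. Against sham, Acta1 was 0.92 higher on the log2 scale at 3 dpi (adjusted p = 0.194) and 0.91 higher at 30 dpi (adjusted p = 0.162), neither past the threshold in limma.

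The spread within groups of the actins was wide against other genes. The SD of log2 values within groups was 0.63 for Actc1, above that of 90.1% of tested genes, and 0.50 for Acta1, above 84.9% of them. It was 0.28 for Tnnt2, 0.22 for Tnni3 and 0.33 for Tpm1, beside a median of 0.23 over all tested genes. The 200 tested genes with the highest mean log2 level had a median SD of 0.20. Against these, Actc1 lay at percentile 99.5, Acta1 at 97, Tnnt2 at 77.5 and Tnni3 at 62.5.

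Tnnt2, which ties the troponin complex to tropomyosin, had 93497, 78812 and 111286 normalized counts in controls, 74270, 93386 and 113366 in shams, and 127870, 124470 and 82795 at 3 dpi. It had 71234, 85012 and 104565 at 14 dpi, 102703, 98217 and 68439 at 30 dpi, and 90456, 89888 and 96476 at 100 dpi. Every pair of groups overlapped, and the 100 dpi animals were the closest to each other. The means were 111712 ± 25101 at 3 dpi, 94532 ± 16262 in controls, 93674 ± 19550 in shams, 92273 ± 3651 at 100 dpi, 89786 ± 18623 at 30 dpi and 86937 ± 16749 at 14 dpi (SD, n = 3 each), with every step within the SDs. The smallest p of Tnnt2 belonged to 14 dpi against 3 dpi, a log2 difference of -0.35 (SE 0.23, adjusted p = 0.551, limma). At 100 dpi against control the log2 difference was -0.02, with a 95% interval of -0.51 to 0.46.

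Tnni3, the inhibitory subunit of cardiac troponin, had 138552, 109553 and 142449 normalized counts in controls, 106026, 133853 and 137493 in shams, and 133946, 134895 and 114871 at 3 dpi. It had 114190, 104736 and 124252 at 14 dpi, 139741, 155926 and 99373 at 30 dpi, and 88116, 113719 and 122603 at 100 dpi. The lowest value was at 100 dpi and the highest at 30 dpi, with overlap between these groups. Its means ran from 131680 ± 29125 at 30 dpi through 130185 ± 17974 in controls, 127904 ± 11297 at 3 dpi, 125791 ± 17213 in shams and 114393 ± 9760 at 14 dpi down to 108146 ± 17906 at 100 dpi (SD, n = 3 each), again with no step beyond the SDs. The smallest p was that of 100 dpi against 30 dpi, a log2 difference of -0.27 (SE 0.20, 95% interval -0.70 to 0.15, adjusted p = 0.544, limma). The limma F tests over the 6 groups had adjusted p of 0.773 for Tnnt2 and 0.738 for Tnni3. These intervals leave room for differences of up to about the size of their bounds, so equal troponin levels were not shown. Tnni1, the slow skeletal and embryonic troponin I of mammals, made up at most 0.216% of the summed FPKM of Tnni1 and Tnni3 in any library.

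Tpm1, an alpha-tropomyosin made in striated and smooth muscle and, as other isoforms, in non-muscle cells of mammals, had 5261, 4191 and 5400 normalized counts in controls, 4170, 5521 and 5010 in shams, and 5070, 6216 and 11099 at 3 dpi. It had 4195, 5377 and 6419 at 14 dpi, 4175, 5195 and 4325 at 30 dpi, and 2679, 4145 and 3182 at 100 dpi. All 3 animals at 100 dpi lay below every animal of each other group by this measure. The gap was narrow, at 4145 for the highest 100 dpi animal against 4170 for the lowest sham. Such a separation was not counted over all tested genes, so it does not by itself set Tpm1 apart. Animal 3 at 3 dpi lay far above all others. The means were 7462 ± 3201 at 3 dpi, 5330 ± 1113 at 14 dpi, 4951 ± 662 in controls, 4900 ± 682 in shams, 4565 ± 551 at 30 dpi and 3335 ± 745 at 100 dpi (SD, n = 3 each). In FPKM the 100 dpi animals overlapped with the others, 100 dpi 2 having 77.8 FPKM against 73.3 FPKM in 30 dpi 1. The step between 30 and 100 dpi was the only one in that order larger than the larger SD of its neighbours. Tpm1 at 30 and 100 dpi together averaged 3950 ± 893 normalized counts, against 6396 ± 2441 at 3 and 14 dpi together (SD, n = 6 each). The log2 difference was -0.66 (SE 0.17, 95% interval -1.02 to -0.29, adjusted p = 0.0175, limma), and the 2 sets of animals overlapped. Without animal 3 at 3 dpi it was -0.49 (adjusted p = 0.0302, limma), and without animal 3 at 14 dpi it was -0.58 with an adjusted p of 0.0505, on the other side of the threshold. The limma F test of Tpm1 over the 6 groups did not pass the threshold either (adjusted p = 0.0641). The log2 difference of Tpm1 at 100 dpi was -0.58 against control (adjusted p = 0.131; -0.70 without control 2), -0.57 against sham (adjusted p = 0.185) and -0.47 against 30 dpi (adjusted p = 0.364), none past the threshold in limma. At 3 dpi Tpm1 was 0.52 higher against control on the log2 scale (adjusted p = 0.318, limma), and without animal 3 that difference was 0.19.

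Some marker lists of other cell types were lower at the late than at the early times, as Tpm1 was, and others were not. Of 10 smooth muscle markers, all tested, 6 were called lower at 30 and 100 dpi than at 3 and 14 dpi and none higher, with a median log2 difference of -0.41. In that comparison 16.7% of all tested genes were called, 729 lower and 925 higher, a share that stands beside each list here. The summed level of the smooth muscle markers was 136725 to 193996 normalized counts at 3 dpi, 123906 to 152608 at 14 dpi, 108333 to 144196 at 30 dpi and 85751 to 130512 at 100 dpi. Acta2, 1 of the 10, held 29493 to 82088 normalized counts in the injured animals, so single genes weigh heavily in these sums. The list also holds Des (desmin), and its sums were not shown to be a level of smooth muscle alone. Of 10 fibroblast and matrix markers, 9 were tested and 5 were called lower at the late times. Their sums were 47205 to 66792 at 3 dpi, 70908 to 76461 at 14 dpi, 21640 to 65785 at 30 dpi and 22768 to 37824 at 100 dpi. The part of smooth muscle and fibroblast cells in the Tpm1 difference was not tested. Of the skeletal muscle markers 5 of 5 tested had negative log2 differences, 2 of them called (median -1.63), of the red cell markers 4 of 4, 1 of them called (median -1.18), and of the leukocyte markers 4 of 4, none called (median -0.29). Of 5 tested endothelial markers 2 were called higher and 1 lower, with a median of -0.02. At 100 against 30 dpi, leukocyte (4 of 4, median 1.28), red cell (4 of 4, median 0.89) and endothelial markers (5 of 5, median 0.50) had positive log2 differences. None of these was called there, beside 0.769% of all tested genes, and Tpm1 had -0.47. Skeletal muscle markers had 2 positive and 2 negative differences there. The part of these lists in the Tpm1 difference was not tested either. Of the 17 cardiomyocyte markers, 2 were called higher and none lower in late against early times. In such pieces of tissue fewer cells of a type and less RNA per cell cannot be told apart.

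Across comparisons, the counts of called members stood as follows beside all tested genes. Against control, none of the 5 was called at 3 dpi (0.334% of 9887 genes called), at 14 dpi (0.89%), at 30 dpi (11.3%) or at 100 dpi (12%). Against sham, none was called at 3 dpi (0.971%), 14 dpi (0.738%), 30 dpi (7.25%) or 100 dpi (7.14%). Sham against control had no called member among 0% of genes called by limma, with 479 genes at an unadjusted p under 0.05. Between consecutive times no member was called at 14 against 3 dpi (0%, with 1205 genes at an unadjusted p under 0.05), at 30 against 14 dpi (3.97%) or at 100 against 30 dpi (0.769%). That last share rests on 76 called genes, a count that was 0 without 30 dpi 3, 100 dpi 2 or 100 dpi 3, 1 without 30 dpi 2, 44 without 100 dpi 1 and 360 without 30 dpi 1. Cryoinjured against uninjured animals gave no called member (12.9%), and late against early times gave 1 of 5, beside 16.7% of all genes, so the count alone does not set the 5 apart. At an unadjusted p under 0.05 limma had 2 members at 3 dpi against sham (Acta1 and Tpm1), beside 19.2% of all tested genes. It had 1 at 30 dpi against sham (Acta1), beside 22.4%. Tpm1 was the 1 member at 100 dpi against sham (beside 21.6%) and at 100 dpi against control (beside 27.8%). There were 2 at 100 against 30 dpi (Actc1 and Acta1), beside 16.1%, and none in the other 8 comparisons without a call. The counts of 1 among 5 lie near those shares. In the 13 comparisons without a limma call, edgeR's quasi-likelihood test called no member and DESeq2 called 1, Acta1 at 100 against 30 dpi. These comparisons share animals, so they are not separate pieces of evidence.

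**Figure D2:**
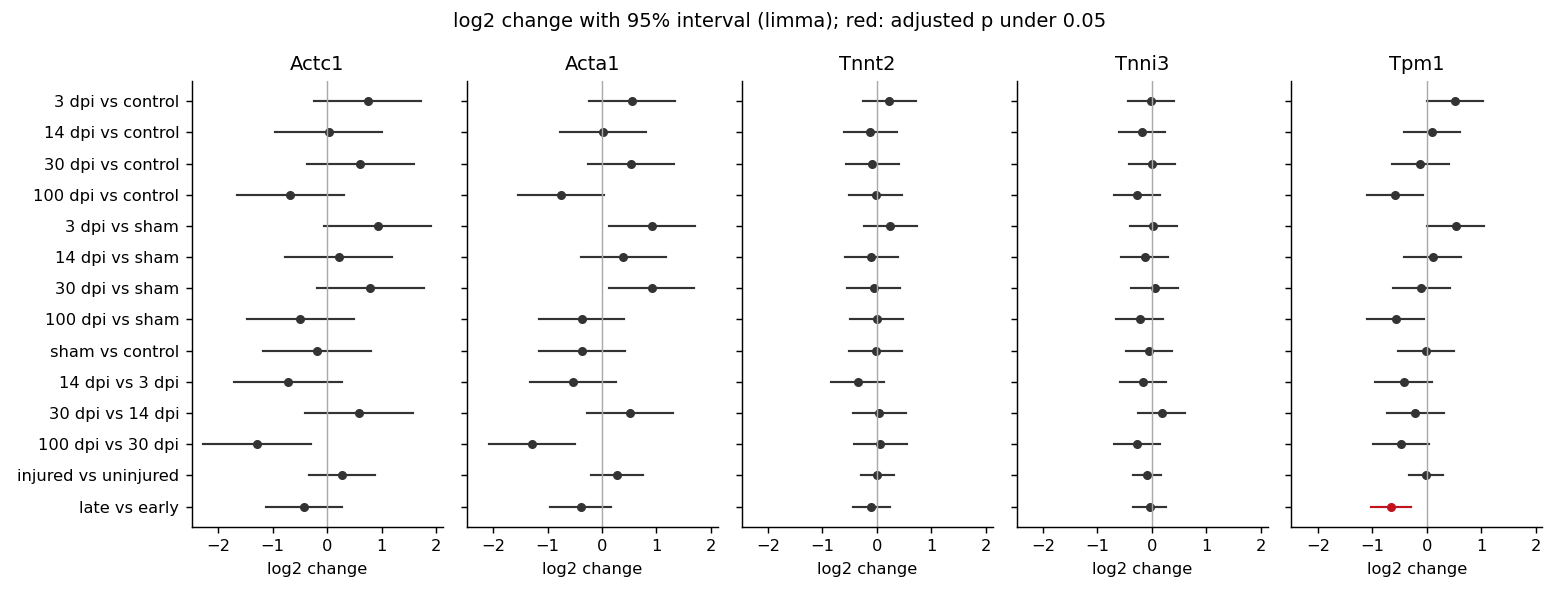
Log2 difference of each transcript in 14 comparisons (x axis, from limma on log2(normalized count + 1)), with points for the estimate and lines for the 95% interval. Red marks an adjusted p under 0.05, which is Tpm1 in late against early times (-0.66). The actin intervals are the widest, and those of Actc1 and Acta1 at 100 against 30 dpi lie below 0.

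All 5 members had the same sign in 6 of the 14 comparisons, and signs were mixed in the other 8. All 5 were lower at 100 dpi than in control, with a median log2 difference of -0.58, beside -0.02 over all tested genes, and lower than in sham, with a median of -0.38 beside -0.02. All 5 were also lower in sham than in control, animals without cryoinjury, with a median of -0.05 beside 3.2e-04 and no gene called by limma. All 5 were higher at 3 dpi than in sham, with a median of 0.53 beside 0.0023 over all genes, and all 5 were lower at 14 than at 3 dpi, with a median of -0.42 beside -0.0044. The medians of these 2 comparisons, and of 100 dpi against control, are the Tpm1 values. At 3 dpi against sham the members ran from 0.03 (Tnni3) to 0.93 (Actc1). With single libraries left out, Tpm1 there fell to as low as 0.21. All 5 were lower in late than in early times as well, with a median of -0.39 beside -0.01; Actc1 had -0.42 (adjusted p = 0.412), Acta1 -0.39 (0.329), Tnnt2 -0.10 and Tnni3 -0.04 by limma. These are counts of signs of differences that mostly did not pass the test. After correction of the libraries for a trend of levels with transcript length, Tnnt2 turned to 0.04 at 100 dpi against control, to 0.04 at 100 dpi against sham, to 7.7e-04 in sham against control and to 0.05 in late against early times, and Tnni3 turned to -0.03 at 3 dpi against sham and to 0.10 in late against early times. At 100 dpi against sham Tnnt2 was also above 0 with TMM factors (0.0068) and with FPKM (0.02), and in late against early times Tnni3 was above 0 with FPKM (0.08). Injured against uninjured animals gave log2 differences of 0.27 for Actc1 (95% interval -0.33 to 0.87), 0.27 for Acta1 (-0.21 to 0.76) and 0.01 for Tnnt2 (-0.29 to 0.31). The same comparison gave -0.09 for Tnni3 (-0.35 to 0.17) and -0.01 for Tpm1 (-0.33 to 0.30).

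Levels of the 2 actins moved together from animal to animal. Over the 18 libraries, log2 levels of Actc1 and Acta1 had Pearson r = 0.91 and Spearman rho = 0.87, each with a permutation p of 1e-05, the smallest that 100000 permutations give, and 1e-04 after adjustment over 10 pairs. Leaving out the 2 animals farthest from the median of Actc1 (100 dpi 1 and control 2) gave r = 0.85, and deviations from group means gave r = 0.84. All permutations of pairs shuffled the 18 libraries without regard to group, so their p values also take in differences between groups. No p was computed for the deviations from group means. Actin messages of vertebrates are alike in coding sequence, so reads of 1 actin could be counted for another, and how far that enters the correlation was not tested. The 2 troponin transcripts had r = 0.66 (rho = 0.74, permutation p = 0.00249, adjusted p = 0.00622), and r = 0.62 without the 2 farthest animals and 0.76 within groups. Tnni3 also went with Actc1 (r = 0.72, rho = 0.67, adjusted permutation p = 0.0032) and with Acta1 (r = 0.71, rho = 0.77, adjusted permutation p = 0.0032). Tpm1 went least with the troponins, at r = 0.37 with Tnni3 (rho = 0.40, adjusted permutation p = 0.146) and r = 0.18 with Tnnt2 (rho = 0.31, adjusted permutation p = 0.476). Its relation to Actc1 (r = 0.53, rho = 0.58, adjusted permutation p = 0.0375) fell to r = 0.35 without 100 dpi 1 and control 2, and within groups it was 0.25, so it rests in part on those animals and on differences between groups.

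**Figure D3:**
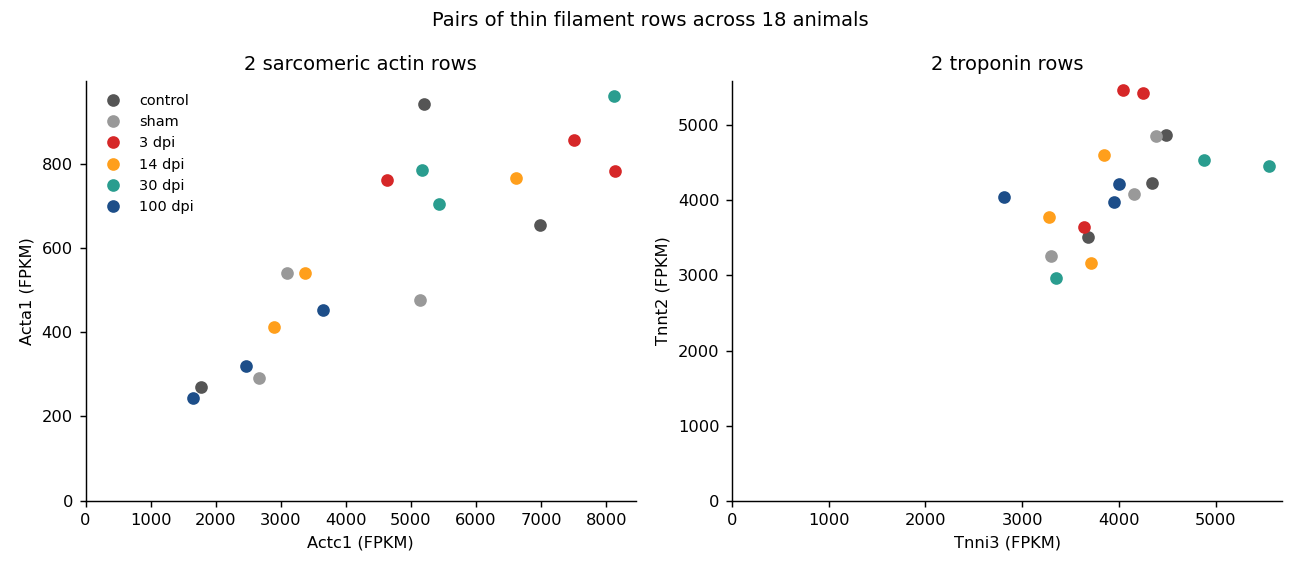
FPKM of Acta1 against Actc1 (left) and of Tnnt2 against Tnni3 (right), linear axes from 0, with 1 point for each of the 18 animals coloured by group. The actin points run from 100 dpi 1 (1653 and 243 FPKM) up to 30 dpi 2 (8117 and 960 FPKM), and the troponin points form a tighter cloud.

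The transcripts most like each member over the 18 libraries were taken as the 3 with the highest Pearson r of log2 levels. The search covered tested genes with a standard symbol and left out Rik and Gm names. For Actc1 they were Acta1 (r = 0.91), Dcun1d2 (0.91) and Ank1 (0.86), and for Acta1 they were Actc1 (0.91), Pitpnm1 (0.86) and Fkbp1a (0.85). Each actin thus had the other as its closest row among the genes searched, for Actc1 nearly level with Dcun1d2. Within groups Acta1 was not the closest to Actc1, at r = 0.84 beside 0.89 for Dcun1d2 and 0.88 for Ank1. Likewise Fkbp1a, at r = 0.87 within groups, was closer to Acta1 than Actc1 was. For Tnnt2 they were Ndufv2 (0.87), Tomm70a (0.82) and Tpm3 (0.81), and for Tnni3 they were Myl4 (0.86), Msrb3 (0.81) and Ebag9 (0.81), Myl4 being a myosin light chain. For Tpm1 they were H13 (0.89), Sfn (0.88) and Fam3c (0.88), none of them a sarcomere gene.

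The balance between the 2 actins varied less than their levels. Acta1 made up 8.50% to 15.3% of the summed FPKM of Acta1 and Actc1. The row labelled Acta2 held 920 to 2710 FPKM, above Acta1 in every library, and is left out of that sum. The Acta1 share depends on the lengths assigned to the rows. Normalized count over FPKM, which rises with that length, averaged 72.4 for Acta1 and 21.1 for Actc1 in controls. In normalized counts, not scaled by length, Acta1 therefore weighs more, with a median of 43415 beside 104938 for Actc1 over the 18 libraries. The FPKM share of Acta1 is given next. This share was 11.7 ± 1.61% in injured animals (SD, n = 12) and 11.7 ± 3.12% in uninjured animals (SD, n = 6), a difference of -0.022 percentage points (exact permutation test, two-sided, p = 0.985, adjusted over 4 ratio tests p = 0.985). At 30 and 100 dpi it was 11.8 ± 1.02%, against 11.6 ± 2.15% at 3 and 14 dpi (SD, n = 6 each; exact permutation p = 0.868, adjusted p = 0.985). The level of Actc1, in comparison, spanned a 4.98-fold range between the lowest and the highest animal.

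The ratio of troponin (Tnnt2 plus Tnni3) to actin (Actc1 plus Acta1) FPKM was 3.62, 2.85 and 2.00 at 100 dpi, against 1.58, 1.10 and 1.03 at 30 dpi. The 2 groups did not overlap, but 3 animals against 3 cannot go below an exact p of 0.1. At 3 dpi the ratio was 1.14, 1.09 and 1.35. The range of 100 dpi also held control 2 (3.51), sham 1 (2.22), sham 3 (2.54) and 14 dpi 2 (2.14). On the log2 scale the ratio averaged 0.87 ± 0.73 at 30 and 100 dpi, against 0.47 ± 0.40 at 3 and 14 dpi (SD, n = 6 each; exact permutation p = 0.271, adjusted p = 0.756). It averaged 0.67 ± 0.60 in injured animals (SD, n = 12) and 0.94 ± 0.60 in uninjured animals (SD, n = 6; exact permutation p = 0.378, adjusted p = 0.756). Neither difference passed a threshold of 0.05. The actin sum of this ratio leaves out the row labelled Acta2.

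**Figure D4:**
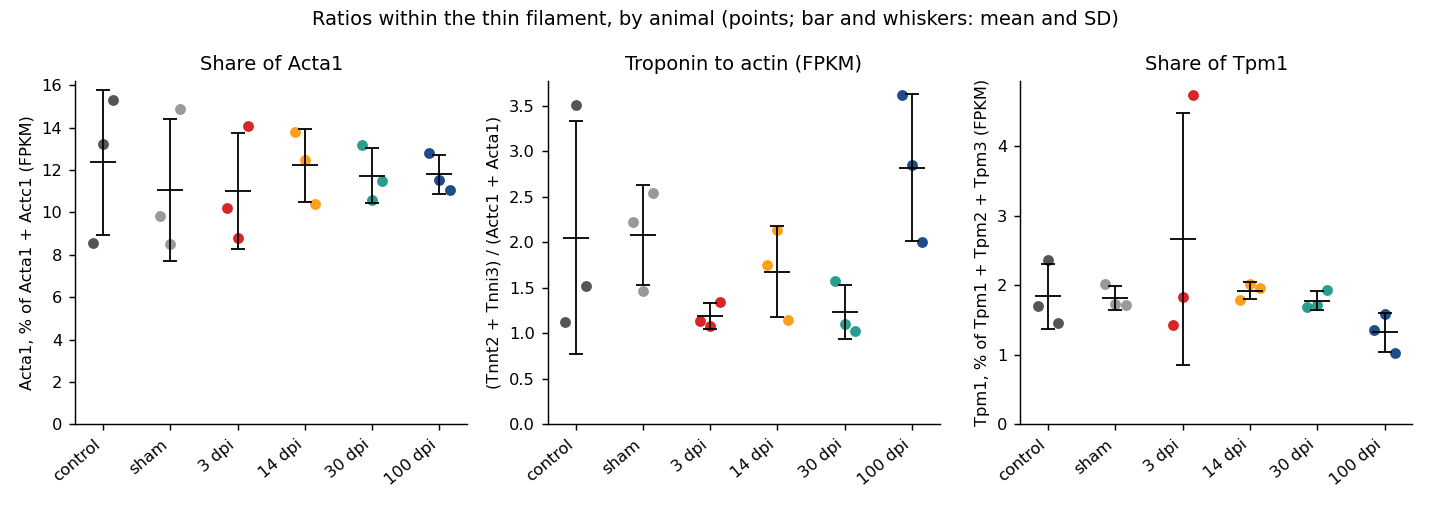
Ratios of FPKM by group: Acta1 in percent of Acta1 plus Actc1, troponin (Tnnt2 plus Tnni3) over actin (Actc1 plus Acta1), and Tpm1 in percent of Tpm1, Tpm2 and Tpm3. Points are animals, with group mean and SD (n = 3). The Acta1 share stays between 8.50% and 15.3%, and the troponin to actin ratio is 2.00 to 3.62 at 100 dpi and 1.03 to 1.58 at 30 dpi, with sham 1, sham 3, 14 dpi 2 and control 2 (3.51) also within the 100 dpi range.

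Tpm1 was a small part of the tropomyosin message as the rows are labelled. The row labelled Tpm3, a slow muscle and non-muscle tropomyosin in mammals, held 3421 to 6109 FPKM, so Tpm1 made up only 1.02% to 4.75% of the summed FPKM of Tpm1, Tpm2 and Tpm3, with the highest share in animal 3 at 3 dpi. The row of Tpm3 differed by -0.20 on the log2 scale (adjusted p = 0.474, limma) between late and early times. Row names came from mouse annotation and were not checked against gecko sequence here, so which row holds the main cardiac tropomyosin of this species is uncertain. Tnnc1 (troponin C) and Tpm4 had no row under these symbols in the expression table, so neither was analysed and the tropomyosin share leaves out Tpm4.

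Besides the 5, a list of 32 other thin filament genes was examined, of which 22 were tested. In late against early times 2 were called higher and 7 lower, beside 16.7% of all tested genes called, with a median log2 difference of -0.22 beside -0.01 over all tested genes. Those called lower with Tpm1 were Lmod1 (-2.48, adjusted p = 0.00387), a leiomodin of smooth muscle, Cfl1 (-0.62, adjusted p = 0.00151), the non-muscle cofilin that severs actin, and Actb (-0.57, adjusted p = 0.0192), the cytoplasmic beta-actin, all by limma. Actg2 (-2.33), Neb (-0.98), Capza1 (-0.34) and Capzb (-0.32) were the other 4, for smooth muscle gamma-actin, nebulin and 2 subunits of the capping protein. Those called higher were Fhod3 (0.48, adjusted p = 0.00487, limma), a formin that assembles cardiac thin filaments, and Xirp2 (0.58), an actin-binding protein of the intercalated disc. Of these 9, Cfl1 and Lmod1 kept their calls under every setting run. With the length trend removed, 5 of the 9 were no longer called: Fhod3 (adjusted p = 0.101), Xirp2 (0.242), Actb (0.0698), Actg2 (0.0602) and Capzb (0.152), by limma. Leaving out 1 of the 12 libraries at a time ended the call of Actg2 in 9 cases, of Neb and Xirp2 in 6 each, of Capza1 in 4, of Capzb in 3 and of Actb in 1. Several of the genes called lower are not made mainly by heart muscle cells in mammals, and 2 of them, Actg2 and Lmod1, also stand in the smooth muscle list above. At 100 dpi against control, where 12% of all genes were called, the list had 2 called higher, Fhod3 (0.71) and Tmod3 (0.63), and 3 lower, Lmod2 (-0.94), Neb (-1.30) and Capzb (-0.42). Without control 2, only Fhod3 of these 5 was called (0.74, adjusted p = 0.0179, limma), and with the length trend removed Fhod3 was not called either (0.42, adjusted p = 0.0667). Against sham, the 100 dpi animals had 3 of the 22 called higher, Fhod3 (0.60), Tmod3 (0.62) and Nebl (0.60), and none lower, beside 7.14% of all tested genes. At 30 dpi against control 1 was called higher and 4 lower, beside 11.3% of all genes. None of the 22 was called at 3 or 14 dpi against control.

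**Figure D5:**
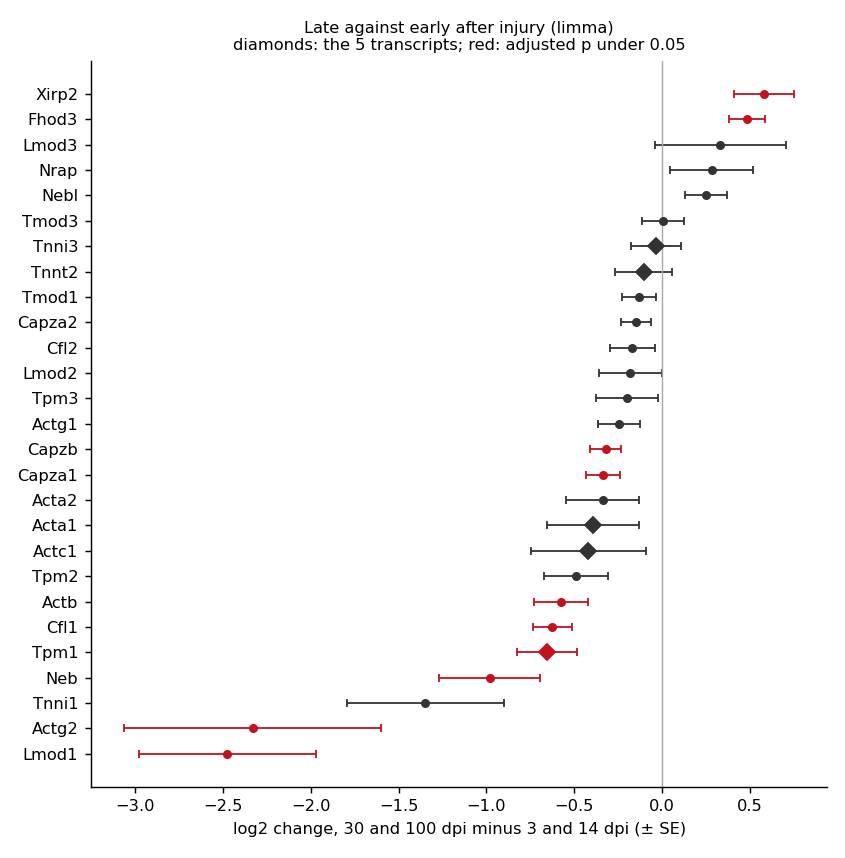
Log2 difference of 30 and 100 dpi against 3 and 14 dpi (x axis, with SE) for the 5 transcripts (diamonds) and the 22 other tested thin filament genes (circles), n = 6 animals each; red marks an adjusted p under 0.05. Tpm1 (-0.66) is the 1 diamond in red, with 7 other genes called lower and Fhod3 and Xirp2 higher.

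Among partners of the thin filament, 8 thick filament and titin genes were tested, and 1 of the 8 was called in late against early times, beside 16.7% of all genes: Ttn, the giant spring of the sarcomere, averaged 132034 ± 15249 normalized counts at 30 and 100 dpi, against 66408 ± 7889 at 3 and 14 dpi (SD, n = 6 each; log2 difference 0.99, adjusted p = 1.37e-04, limma). Under the alternatives that kept all libraries the Ttn difference ran from 0.63 to 1.00, called in each. Of 13 tested transcription factors known to drive cardiac and muscle promoters in mammals, 3 were called higher in the same comparison, Tead1 (0.66), Mrtfb (0.65) and Mef2c (0.42), and 1 lower, Nkx2-5 (-0.49), again beside 16.7% of all genes. With the length trend removed Nkx2-5 was not called there (adjusted p = 0.053, limma). At 100 dpi against control the same 3 were called higher, of which Mrtfb alone kept its call with each library left out, and Nkx2-5 (-0.59) and Srf (-0.88, adjusted p = 0.0161, limma), the factor that binds actin gene promoters, were called lower. Srf had 2690 ± 201 normalized counts at 100 dpi, against 5279 ± 2317 in controls (SD, n = 3 each), without overlap. The share of all tested genes without overlap there was not counted. Srf was not called once control 3, 100 dpi 1 or 100 dpi 3 was left out. The call of Nkx2-5 at 100 dpi against control was likewise lost without control 1, control 3 or 100 dpi 2 (adjusted p up to 0.0681, limma). Both actins had negative log2 differences in the same comparison, -0.68 for Actc1 and -0.75 for Acta1, that did not pass the threshold. Whether the levels of Srf or of the other factors bear on the actin levels was not tested.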

How the data were processed

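Both tables used were deposited by the authors: normalized counts, that is, a read signal for every gene scaled between libraries by the authors, and FPKM, per the file headers. The tools included HISAT2 version 2.2.0, StringTie version 2.2.1 and Salmon version 1.8.0, per the submitters' processing notes. Per the labels, a gecko genome served for alignment and assembled transcripts were named from mouse genes. The normalization is not given in the sources used here. Every value was a whole multiple of 1 read, within 0.1 of a read, in 100% of values, so reads were recovered from the deposited normalized counts.

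Here, log2(normalized count + 1) of the 9887 rows averaging 10 or more normalized counts entered 1 limma-trend model over the 6 groups (limma 3.58.1, R 4.3.3; 12 residual degrees of freedom, prior df 3.611), with two-sided tests and Benjamini-Hochberg adjustment over all tested rows. Of 12376 rows, 444 were at 0 throughout. Fold changes on this scale understate those of low genes. RNA was extracted from each animal separately, so replicates are animals. Late against early compared the mean of 30 and 100 dpi with that of 3 and 14 dpi, and injured against uninjured the mean of the 4 injured with that of the control and sham groups. Ratios of FPKM were compared by exact permutation over animals. The model was checked on simulated counts.

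The named genes are the 5 members, examples from fixed lists of related genes and markers, and the 3 genes with a standard symbol most correlated with each member. Members, lists and the contrast of late against early times were chosen with earlier results of these data known. Alternatives were other pseudocounts (0.1 and 10), no filter, TMM and median-of-ratios factors, FPKM (pseudocount 0.1, minimum mean 0.5), only the compared groups, a replicate block, removal of a length trend, edgeR 4.0.16 and DESeq2 1.42.0 on recovered reads, and leaving out each library. Median-of-ratios factors returned the values of the deposited scale, with Tpm1 at -0.66 (adjusted p = 0.0175, limma) in late against early times and 76 genes called at 100 against 30 dpi. That setting is therefore no separate check. Coordinates and sequences were not used here. Figures were drawn with matplotlib 3.10.9 in Python 3.11.15.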

Additional observations from a re-analysis of the deposited data

How the results depend on the processing

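The count of called members stayed at its reported value under every alternative in 11 of 14 comparisons. At 100 dpi against control it was 1 without control 2 (Acta1, -1.26, adjusted p = 0.0256), with 0 to 1 over the libraries left out. At 100 against 30 dpi it was 1 with DESeq2 (Acta1, -1.25, adjusted p = 0.0173). In late against early times it was 0 without animal 3 at 14 dpi, again with 0 to 1 over the libraries left out. There the Tpm1 difference ran from -0.77 to -0.49 with 1 library left out (adjusted p 0.00636 to 0.0505) and from -0.69 to -0.61 under the other settings (adjusted p at most 0.042). The Acta1 share (Acta1 percent of Acta1 plus Actc1, injured vs uninjured and late vs early) changed sign with single libraries left out. Its difference ran from -0.666 to 0.693 percentage points for injured against uninjured animals and from -0.423 to 0.639 for late against early times. The count of all genes called at 100 against 30 dpi was 76 as reported, 0 with only the 2 groups in the fit, 10 with the replicate block, 383 with DESeq2 and 0 to 360 with 1 library left out. The thin filament list had 9 called in late against early times, 4 with the length trend removed, 4 without animal 3 at 14 dpi and 5 without animal 1 at 100 dpi. Fhod3, Xirp2, Actb, Actg2 and Capzb were the 5 no longer called there once the length trend was removed. Replicate numbers gave little sign of pairing animals: of 45 same-numbered pairs, 5 had deviations correlated above 0.1 (range -0.179 to 0.23). Pairing was not tested beyond these correlations. With the replicate block Tpm1 gave -0.66 (adjusted p = 0.0107) in late against early times, and no member's call changed. Among 70 member differences, uncalled ones changed sign in 10 with the length trend removed, 3 each with FPKM, edgeR and DESeq2, 1 with TMM factors and none with the other pseudocounts. No filter, only the compared groups and the replicate block leave the log2 differences themselves unchanged in this balanced design, so under them no sign could change. Depth limits the members little, at 2805 reads or more a value; groups held 3 animals each, and the cause of these shifts was not tested.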
